A study of Rattus norvegicus with 4 samples.

Results

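This account describes the transcripts of centrosome proteins and of the gamma-tubulin machinery in rat tendon fibroblasts given the clot releasate of PRP or of PPP. The members were chosen by gene symbol: names that start with Cep or Haus and a digit, names that start with Tubg, and Pcnt, Cdk5rap2, Sass6, Stil, Plk4, Cntrl, Cntrob, Ninl and Nin. The rule found 44 probe sets of 42 genes among 14824 probe sets of 14557 genes that carry exactly 1 symbol. Sass6, Stil and Nin, together with the 1 probe set shared by Cep83 and Cep83l1, were not analysed here. The family was put together with the differences between the PRP and PPP arrays of this study in view, so those differences are given below as a description, without a test. Haus6 and Ninl have 2 probe sets each, and Haus4-ps1 is annotated as a pseudogene.

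The cells came from the tail tendons of Lewis rats that were retired breeders. They were embedded in gels of type I collagen, kept for 2 days in medium with 10% fetal bovine serum, and moved to medium in which a 10% clot releasate took the place of the serum. PRP and PPP are not spelled out in the labels and are taken here to mean platelet-rich and platelet-poor plasma. RNA was taken 24 hours later and hybridised to Affymetrix arrays, 2 for each releasate. Untreated cells were not analysed here, nor is it stated whether the replicates are separate animals, pools or cultures, or whose blood gave the plasma. A p-value given below thus reflects array-to-array spread alone, and that spread may be technical.

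The centrosome is a pair of centrioles inside a protein matrix, the pericentriolar material, from which a cell grows its microtubules. Gamma-tubulin rings in that material start new microtubules, and in mitosis the augmin complex adds such rings along the spindle. A dividing cell copies its centrioles once per cycle under the kinase Plk4, whereas in a resting fibroblast the older centriole docks at the membrane and carries a primary cilium.

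Over all named probe sets, Pearson's r was 0.994 within PPP, 0.995 within PRP and 0.987 to 0.990 across the releasates. Values are on the log2 scale, and levels of different probe sets cannot be compared with each other. Of 11 measured markers of tendon fibroblasts, 10 lay at or above the median level of named probe sets (4.11). The exception was Tnmd, the tendon membrane protein tenomodulin, whose levels were 4.43 and 4.50 on the PPP arrays and 3.23 and 2.99 on the PRP arrays. The 11 markers went both ways: both PRP arrays lay below both PPP arrays in 8 and above in 2, with a median difference of -0.53. Of the named probe sets at or above the median level, 22.4% lay below and 35.5% above. Limma called Tnmd lower (adjusted p 0.00861), and also Fmod, the collagen-binding fibromodulin, which read 8.71 and 8.41 with PPP and 6.12 and 6.14 with PRP (adjusted p 0.00271). The 2 higher markers were Dcn, the proteoglycan decorin, at a difference of 0.56 (adjusted p 0.0709 by limma) and Pdgfra, a growth factor receptor, at 0.55 (adjusted p 0.0713 by limma); neither passed. Among the lower markers that did not pass, Col1a1 differed by -0.66 (adjusted p 0.0650 by limma). The rest of these were Scx and Mkx at -0.55 each, Col1a2 at -0.53, Col3a1 at -0.39 and Thy1 at -0.20. Of the markers of other cells, 1 of 7 for leukocytes (Cd14), 2 of 4 for platelets, 1 of 4 for endothelium and 2 of 4 for skeletal muscle reached that median level. The median level of the leukocyte markers was 2.53 and 2.49 with PPP and 2.57 and 2.49 with PRP. Limma called 1 marker of other cells higher: Pf4, platelet factor 4, read 3.79 and 3.56 with PPP and 5.62 and 5.43 with PRP (adjusted p 0.00398 by limma). The other measured platelet markers overlapped between releasates, with differences of -0.16 for Ppbp, -0.13 for Gp1ba and 0.03 for Gp9. Limma called 1 lower: Acta1, skeletal actin, read 7.18 and 6.72 with PPP and 5.89 and 5.77 with PRP (adjusted p 0.0429 by limma). The other measured skeletal muscle markers, Des, Tnnt3 and Ckm, also overlapped, with differences of 0.09, 0.08 and 0.02. The part of these marker shifts in the results below was not tested. In RNA from whole cultures a lower share of cells making a transcript and less of it per cell cannot be told apart.

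Most members were somewhat higher with PRP than with PPP, none by more than 1.44-fold. Of the 44 probe sets, 36 had a positive difference of PRP minus PPP, where 49.3% of all named probe sets had one. The differences ran from -0.16 for Cep70 to 0.53 for Cep19, with a median of 0.24; the median over all named probe sets was -0.00266. With each gene counted once, by its brighter probe set, the median was 0.21. Among the named probe sets at or above the median level, where 40 of the 44 lie, the median was 0.04, 58.6% were positive, and both PRP arrays lay above both PPP arrays in 35.5% and below in 22.4%. Both PRP arrays lay above both PPP arrays in 25 of the 44, against 23.9% of all named probe sets, and below in 0, against 22.5%. The remaining 19 overlapped between the groups.

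No member passed an adjusted p of 0.05 by limma, in either direction: 0 of 44, where 0.83% of all named probe sets passed as higher and 1.02% as lower. Those are 123 and 151 probe sets, against 283 and 189 once arrays are centred on their medians, where again 0 members passed. At an unadjusted p of 0.05 by limma, 13 members were higher and 0 lower, against 8.53% and 7.74% of all named probe sets. Among the named probe sets at or above the median level, those shares were 14.3% and 8.88%. Because the family was assembled with this contrast in view, nothing is read from these counts. A single probe set taken by itself could not reach significance in an exact permutation test, whose smallest two-sided p with 2 arrays against 2 is 0.333.

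**Figure D1:**
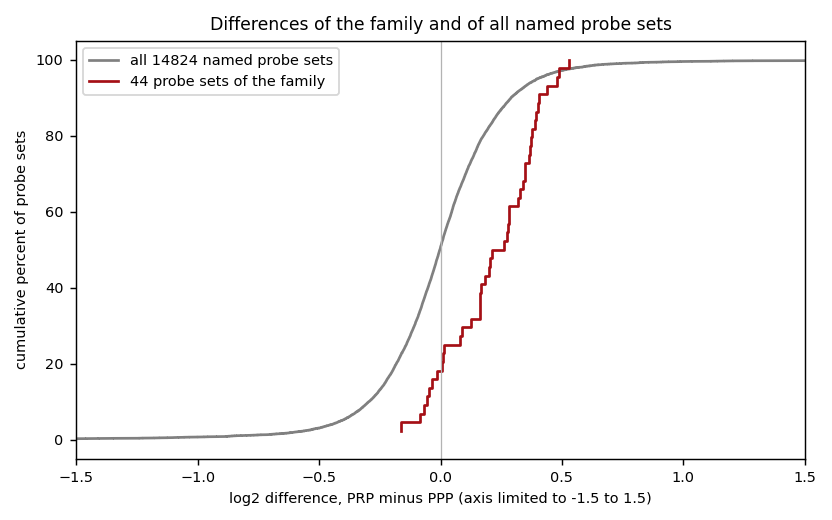
Cumulative percent of probe sets (vertical axis) by log2 difference of PRP minus PPP (horizontal axis, limited to -1.5 to 1.5) for the 44 probe sets of the family in red and all 14824 named probe sets in grey. The red line runs from -0.16 to 0.53 around a median of 0.24, while the grey line is centred on -0.00266.

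**Figure D2:**
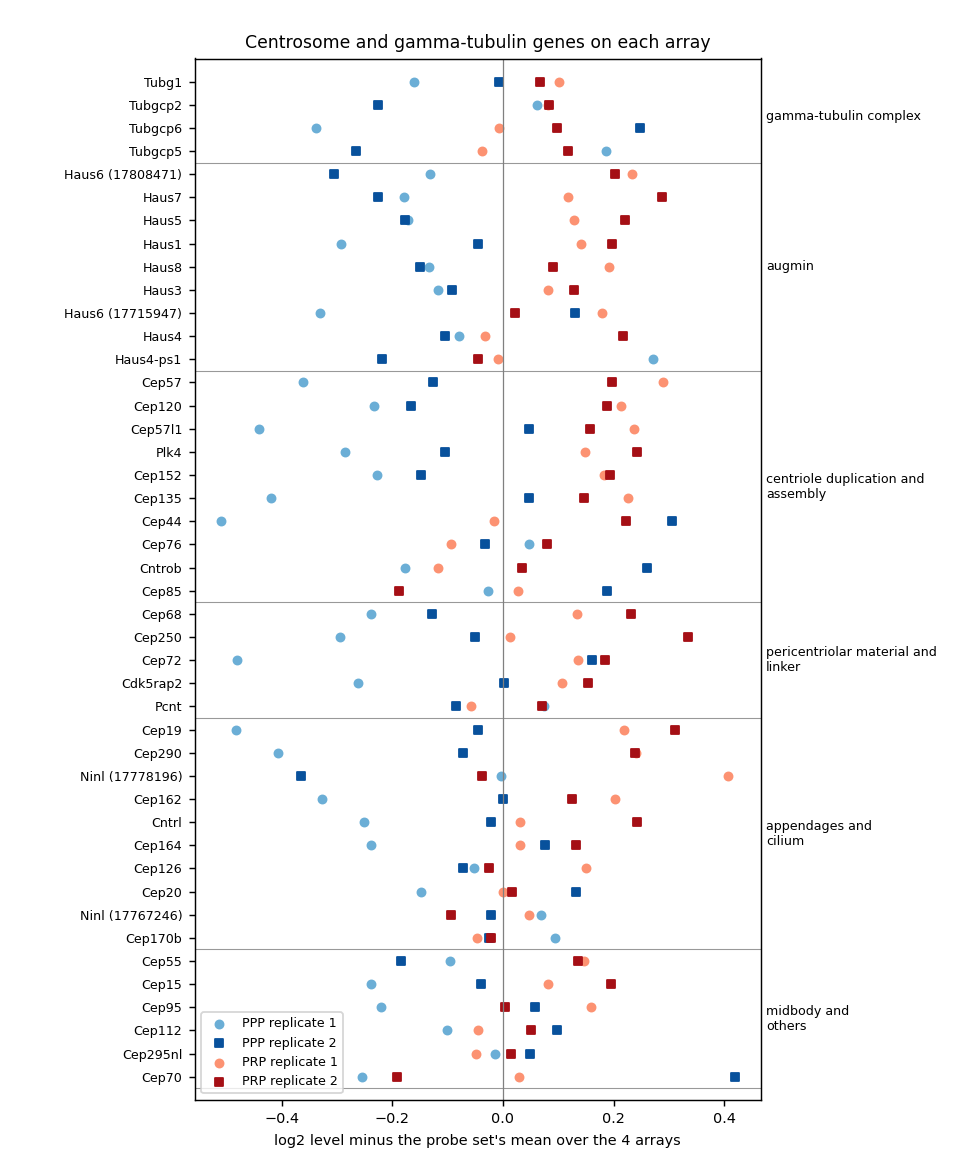
Log2 level of each member on each array minus that probe set's mean over the 4 arrays (horizontal axis), by role group; blue symbols are PPP, red symbols PRP, circles replicate 1 and squares replicate 2. In 25 of 44 rows both red symbols lie to the right of both blue ones, and in many rows PPP replicate 1 lies farthest to the left.

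The members of the gamma-tubulin complex differed little. Tubg1, gamma-tubulin itself, read 8.0 and 8.15 with PPP and 8.26 and 8.23 with PRP. Its difference was 0.17 (limma's SE 0.11, 2 arrays per releasate here and below), and the PRP arrays lay just above the PPP arrays. The window from 250 bases before to 50 after its annotated start (GRCr8, chr10:86552893-86553192, plus strand) is printed here, as are those of other leading members below, because E2F, CHR and CCAAT matches, defined with the promoters further on, are compared across the family. It holds 2 CCAAT boxes. Capitals mark the matches on either strand, and all windows are from RefSeq, 5′ to 3′ on the gene's strand.
Tubg1: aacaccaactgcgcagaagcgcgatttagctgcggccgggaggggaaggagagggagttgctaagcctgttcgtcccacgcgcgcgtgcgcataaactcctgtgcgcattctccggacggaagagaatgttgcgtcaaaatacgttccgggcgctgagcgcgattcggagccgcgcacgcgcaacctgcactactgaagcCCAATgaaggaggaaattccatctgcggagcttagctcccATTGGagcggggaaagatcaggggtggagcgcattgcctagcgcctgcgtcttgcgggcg

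Tubgcp2, which binds gamma-tubulin in the small complex that rings are built from, read 7.65 and 7.36 with PPP and 7.67 and 7.67 with PRP, a difference of 0.16 (SE 0.13). Its PRP arrays were nearly equal and only just above PPP replicate 1. Tubgcp5, a ring-specific subunit, read 6.54 and 6.09 with PPP and 6.32 and 6.47 with PRP, and Tubgcp6, another such subunit, 4.34 and 4.93 with PPP and 4.67 and 4.78 with PRP. In each of them the PPP arrays spanned both PRP arrays, so the differences of 0.08 and 0.09 (SE 0.17 and 0.20) are smaller than the gap between replicates.

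In augmin, 7 of 9 probe sets had both PRP arrays above both PPP arrays (23.9% of all named probe sets, 35.5% of those at or above the median level) and 2 overlapped, and the median difference was 0.28. Its PPP arrays lay close together, with a median gap of 0.05 without regard to sign. Haus6, the subunit known in human cells to link augmin to gamma-tubulin rings, read 5.35 and 5.18 with PPP and 5.72 and 5.69 with PRP on the probe set with the larger difference, 0.44 (SE 0.11). Its other probe set read 6.37 and 6.83 with PPP and 6.88 and 6.72 with PRP, where PPP replicate 2 lay between the PRP arrays, and its difference was 0.20 (SE 0.18). The 2 probe sets of Haus6 therefore disagree on whether the groups overlap; only the first of them carries a gene identifier in the platform table. The promoter of Haus6 (GRCr8, chr5:106199023-106199322, minus strand) holds 1 E2F match.
Haus6: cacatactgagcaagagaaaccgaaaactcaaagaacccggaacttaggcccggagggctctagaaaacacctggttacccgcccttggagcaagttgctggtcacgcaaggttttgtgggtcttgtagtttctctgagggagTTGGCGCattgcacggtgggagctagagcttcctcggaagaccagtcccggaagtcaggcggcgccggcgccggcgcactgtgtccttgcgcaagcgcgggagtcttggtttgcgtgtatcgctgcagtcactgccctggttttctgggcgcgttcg

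Haus7 read 7.06 and 7.01 with PPP and 7.35 and 7.52 with PRP, a difference of 0.41 (SE 0.11), or 1.32-fold. The PPP arrays were close together and clear of both PRP arrays. Haus5, Haus1, Haus8 and Haus3 followed at 0.35, 0.34, 0.28 and 0.21, with no overlap between groups. Haus8 is the subunit that binds microtubules in human cells. Haus4 read 6.21 and 6.18 with PPP and 6.25 and 6.50 with PRP, a difference of 0.18 (SE 0.13) that rests mostly on PRP replicate 2. The pseudogene Haus4-ps1 read 3.43 and 2.94 with PPP and 3.15 and 3.12 with PRP; it is below the median level of named probe sets, the groups overlapped, and its difference was -0.05.

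Of the 10 members that act in centriole duplication and assembly, 6 had both PRP arrays above both PPP arrays, beside the same 23.9% and 35.5%, and the median difference was 0.37. Plk4, the kinase that starts duplication, read 7.54 and 7.72 with PPP and 7.97 and 8.07 with PRP, a difference of 0.39 (SE 0.12), or 1.31-fold. Cep152, the scaffold that brings Plk4 to the centriole, read 4.89 and 4.97 with PPP and 5.30 and 5.31 with PRP, with a difference of 0.38 (SE 0.11). Within each releasate the 2 arrays of Cep152 were closer to each other than to any array of the other. The Plk4 promoter (GRCr8, chr2:125730230-125730529, plus strand) is shown because it holds an E2F and a CHR match close together just after the annotated start.
Plk4: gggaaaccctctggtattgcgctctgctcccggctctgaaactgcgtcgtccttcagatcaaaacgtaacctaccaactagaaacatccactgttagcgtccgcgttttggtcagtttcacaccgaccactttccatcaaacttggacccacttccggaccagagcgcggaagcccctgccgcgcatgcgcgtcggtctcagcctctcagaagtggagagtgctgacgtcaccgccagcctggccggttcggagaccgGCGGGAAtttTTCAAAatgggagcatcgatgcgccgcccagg

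Cep57, which in human cells helps keep centriole pairs together, had the largest difference of the group at 0.49 (SE 0.13), from 5.77 and 6.0 with PPP and 6.42 and 6.33 with PRP. Its relative Cep57l1 had a difference of 0.39 (SE 0.18), with PPP replicate 1 well below PPP replicate 2. Cep120, needed for centrioles to lengthen, read 5.85 and 5.91 with PPP and 6.29 and 6.27 with PRP, a difference of 0.40 (SE 0.10). Its 2 arrays per releasate were nearly equal, so the difference is several times the gap between replicates. Cep135, a protein of the centriole's inner frame, was at 0.37 (SE 0.17). The Cep57 promoter (GRCr8, chr8:18970795-18971094, minus strand) holds 1 CHR match and 1 CCAAT box.
Cep57: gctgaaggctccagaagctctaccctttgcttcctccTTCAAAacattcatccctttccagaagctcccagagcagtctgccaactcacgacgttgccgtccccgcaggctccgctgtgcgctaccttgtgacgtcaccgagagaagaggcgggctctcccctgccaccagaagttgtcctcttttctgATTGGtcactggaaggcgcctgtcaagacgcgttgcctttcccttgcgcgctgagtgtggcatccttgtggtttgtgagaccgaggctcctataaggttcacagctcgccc

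At the other end of the group, Cep85, which in human cells aids duplication, read 5.14 and 5.36 with PPP and 5.20 and 4.98 with PRP, a difference of -0.16 (SE 0.14). Cntrob, the daughter-centriole protein centrobin, read 4.34 and 4.77 with PPP and 4.40 and 4.55 with PRP, a difference of -0.08 (SE 0.17). In both the groups overlapped. They also overlapped for Cep76, which restrains repeated duplication in human cells (-0.01), and for Cep44 (0.20), whose PPP arrays stood at 5.56 and 6.37, the widest replicate gap in the family.

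Pericentriolar scaffolds and the linker between centrioles had positive differences in 5 of 5 members, with a median of 0.32. Shares with a positive difference were 49.3% of all named probe sets and 58.6% of those at or above the median level. Both PRP arrays lay above both PPP arrays in 3 of the 5, beside the same 23.9% and 35.5%, and 2 overlapped. Cep68 and Cep250, proteins of the fibre that ties the centrioles together in interphase, had differences of 0.37 (SE 0.11) and 0.35 (SE 0.16). Cep68 read 5.44 and 5.55 with PPP and 5.81 and 5.91 with PRP, and Cep250 read 4.30 and 4.55 with PPP and 4.61 and 4.93 with PRP; the PRP arrays were higher in both, narrowly so for Cep250. Cdk5rap2, a scaffold that activates gamma-tubulin rings, read 6.42 and 6.68 with PPP and 6.79 and 6.83 with PRP and differed by 0.26 (SE 0.13). Pcnt, pericentrin, the large scaffold of the matrix, read 4.68 and 4.53 with PPP and 4.55 and 4.68 with PRP, with overlapping groups and a difference of 0.01 (SE 0.12). Cep72 had a difference of 0.32 (SE 0.21) with overlapping groups: PPP replicate 1 was at 4.07 and the other 3 arrays between 4.69 and 4.74. The Cep68 promoter (GRCr8, chr14:98671819-98672118, minus strand) holds 1 CCAAT box.
Cep68: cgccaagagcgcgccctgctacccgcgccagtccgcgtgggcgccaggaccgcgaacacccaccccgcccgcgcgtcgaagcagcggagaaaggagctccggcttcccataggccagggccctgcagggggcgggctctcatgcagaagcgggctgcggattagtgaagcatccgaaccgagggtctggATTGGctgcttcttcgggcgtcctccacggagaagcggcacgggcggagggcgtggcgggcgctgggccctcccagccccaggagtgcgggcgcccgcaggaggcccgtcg

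Among proteins of the appendages and the cilium, 5 of 10 probe sets had both PRP arrays above both PPP arrays, against 23.9% of all named probe sets and 35.5% of the brighter ones. Cep19, a protein of the mother centriole needed for cilium formation, had the largest difference of the whole family: 6.86 and 7.29 with PPP and 7.56 and 7.65 with PRP, or 0.53 (SE 0.17), which is 1.44-fold. Cep290, which forms part of the gate at the base of the cilium and is mutated in human ciliopathies, read 5.89 and 6.23 with PPP and 6.54 and 6.54 with PRP, a difference of 0.48 (SE 0.14). In both genes PPP replicate 1 was the lowest array by a wide margin. The Cep19 promoter (GRCr8, chr11:82191983-82192282, minus strand) holds 1 E2F match close before the annotated start.
Cep19: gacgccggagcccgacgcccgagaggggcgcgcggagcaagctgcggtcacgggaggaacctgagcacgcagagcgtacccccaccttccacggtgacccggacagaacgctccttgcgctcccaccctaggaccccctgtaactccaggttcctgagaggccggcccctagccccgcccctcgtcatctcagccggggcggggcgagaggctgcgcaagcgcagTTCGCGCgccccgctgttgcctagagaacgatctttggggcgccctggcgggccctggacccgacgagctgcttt

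Cep162, a protein of the axoneme at the ciliary gate, and Cntrl, the subdistal appendage protein centriolin, had differences of 0.33 and 0.27 without overlap. Cep164, the distal appendage protein through which the centriole docks, had 0.16 with overlapping groups. At the lower end, Cep170b, a relative of an appendage protein, read 6.20 and 6.08 with PPP and 6.05 and 6.08 with PRP, a difference of -0.07 (SE 0.11). Ninl, the ninein-like protein that anchors gamma-tubulin, read 4.21 and 4.12 with PPP and 4.18 and 4.04 with PRP on 1 probe set (-0.05, SE 0.11) and 3.74 and 3.38 with PPP and 4.15 and 3.71 with PRP on the other (0.37, SE 0.20). The first of these lies just above the median level of named probe sets and the second below it; the groups overlapped in both, and the signs differ. Cep20 was at 0.02 with overlap, and Cep126, below the median level, at 0.12 without overlap.

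Of the remaining 6 members, Cep55 and Cep15 had both PRP arrays above both PPP arrays, against 35.5% of the brighter named probe sets. Cep55, which recruits the machinery that cuts the midbody when daughter cells part, read 7.51 and 7.42 with PPP and 7.76 and 7.74 with PRP, a difference of 0.28 (SE 0.11). Cep15 read 6.55 and 6.75 with PPP and 6.87 and 6.98 with PRP, a difference of 0.28 (SE 0.12). Cep70 lay lowest of the family at -0.16 (SE 0.23), from 4.66 and 5.33 with PPP and 4.94 and 4.72 with PRP. PPP replicate 2 of Cep70 stood apart from the other 3 arrays, so its sign rests on that array. Cep295nl read 4.08 and 4.14 with PPP and 4.05 and 4.11 with PRP (-0.03, SE 0.11), and Cep95 and Cep112 had differences of 0.16 and 0.00 with overlap. The Cep55 promoter (GRCr8, chr1:245245113-245245412, plus strand) holds 1 CHR match.
Cep55: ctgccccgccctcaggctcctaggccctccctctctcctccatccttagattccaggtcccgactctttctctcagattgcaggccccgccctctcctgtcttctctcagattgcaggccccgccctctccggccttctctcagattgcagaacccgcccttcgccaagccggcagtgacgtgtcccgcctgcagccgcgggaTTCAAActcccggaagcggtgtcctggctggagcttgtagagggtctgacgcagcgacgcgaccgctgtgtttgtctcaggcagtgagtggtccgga

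The PPP replicates of the family did not sit together. PPP replicate 1 was below PPP replicate 2 in 29 of 44 probe sets, where PPP replicate 2 was the higher in 45% of all named probe sets, and the median of PPP replicate 2 minus 1 was 0.19 against -0.03. Without regard to sign, the median gap between the PPP arrays was 0.23 in the family and 0.15 in all named probe sets, and between the PRP arrays 0.09 and 0.12. The part of this array's low values in the differences was not tested beyond leaving it out.

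Without PPP replicate 1 the family's median difference was 0.16, and without PPP replicate 2 it was 0.33. Over the named probe sets at or above the median level these medians were 0.04 and 0.05. Positive differences numbered 32 of 44 without PPP replicate 1. Then 53.1% of all named probe sets were positive, and 57.2% of the named probe sets at or above the median level. The augmin median was 0.21 without PPP replicate 1 and 0.35 without PPP replicate 2, while that of centriole duplication and assembly was 0.15 and 0.46. Pericentriolar and linker genes had medians of 0.13 and 0.42 in the same order. Haus7 (0.43 and 0.38), Haus5 (0.35 and 0.35), Cep120 (0.37 and 0.43) and Cep152 (0.34 and 0.42) hardly depended on which PPP array was used. Cep19 depended on it more, at 0.31 and 0.75, and Cep135 at 0.14 and 0.61. The sign of Cep44 depended on the array left out (-0.20 and 0.61), as did that of Cep70 (-0.50 and 0.17).

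**Figure D3:**
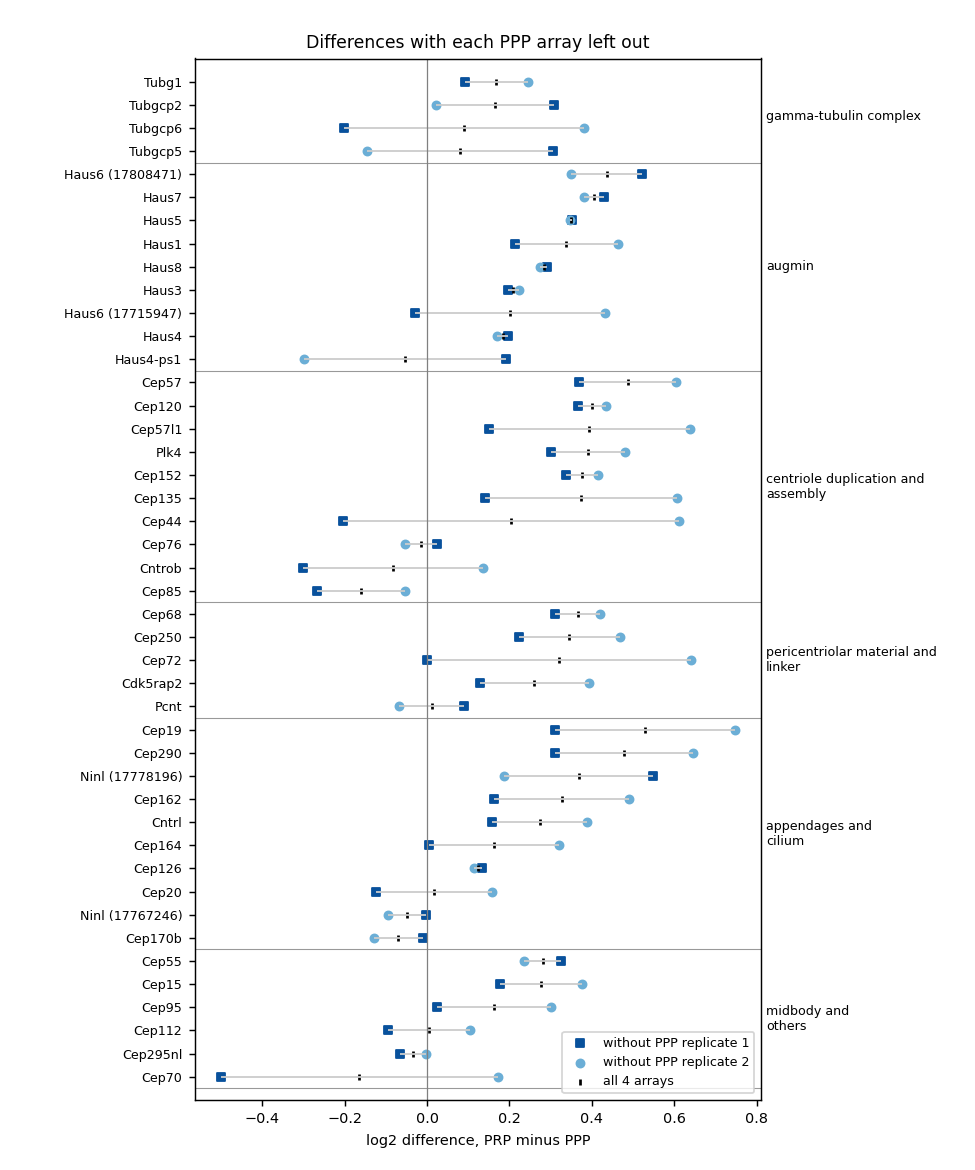
Log2 difference of PRP minus PPP for each member (horizontal axis) with PPP replicate 1 left out (dark squares), with PPP replicate 2 left out (light circles) and with all 4 arrays (black ticks), by role group. The symbols of Haus5, Haus7 and Haus8 nearly coincide, while those of Cep44, Cep70 and Cep72 lie more than 0.6 apart.

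Other genes of the same structures, whose names the rule does not take, are set beside the family here, each gene by its brightest probe set. Counted that way, the family's median difference was 0.21 with all arrays and 0.15 without PPP replicate 1. The family was chosen with this contrast in view, so its order beside the lists is not read as a result. Of 21 measured centriole and satellite proteins limma called 0 (adjusted p of 0.05; 0 also at an unadjusted p of 0.05), 16 were positive (58.6% of the brighter named probe sets were) and the median difference was 0.15. Sfi1, a centrin-binding protein, read 4.19 and 3.97 with PPP and 4.53 and 4.23 with PRP, a difference of 0.30 (SE 0.15, adjusted p 0.386 by limma). Ofd1, a protein of centriole ends and satellites, read 5.07 and 5.33 with PPP and 5.40 and 5.50 with PRP, a difference of 0.24 (SE 0.13, adjusted p 0.428 by limma). PPP replicate 1 was the lower PPP array in 17 of these 21 genes, and their median was 0.05 without it.

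Spindle pole proteins and centrosome kinases had a median difference of 0.20 over 24 measured genes, 19 of them positive. Both PRP arrays lay above both PPP arrays in 15 of the 24 and below in 4, beside 25 and 0 of the family's 44. Of the named probe sets at or above the median level, 35.5% lay above and 22.4% below. Limma called 0, and 7 of the 24 were higher and 0 lower at an unadjusted p of 0.05, against 8.53% and 7.74% of all named probe sets and 14.3% and 8.88% of those at or above the median level, where all 24 lie. Nek6, a mitotic kinase, read 6.27 and 6.43 with PPP and 7.11 and 6.99 with PRP, a difference of 0.70 (SE 0.12, adjusted p 0.0553 by limma). Wdr62, a spindle pole scaffold, read 5.24 and 5.44 with PPP and 5.92 and 5.94 with PRP, a difference of 0.59 (SE 0.12, adjusted p 0.0897 by limma). Both genes had PRP arrays above the PPP arrays by more than the gap between replicates, yet missed the threshold. Here the 2 PPP arrays were alike, with a median of 0.19 without PPP replicate 1.

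Alpha and beta tubulins, the building blocks of microtubules, had a median of 0.05 over 9 measured genes. Limma called 0, and at an unadjusted p of 0.05 it had 1 higher (11.1%) and 1 lower (11.1%). Of the named probe sets at or above the median level, 14.3% were higher and 8.88% lower at that p. Tubb3 read 5.38 and 5.49 with PPP and 5.91 and 5.76 with PRP, a difference of 0.40 (SE 0.12, adjusted p 0.186 by limma). Tubb2b, another beta tubulin, had the opposite sign: 4.62 and 4.66 with PPP and 4.09 and 4.43 with PRP, a difference of -0.38 (SE 0.14, adjusted p 0.276 by limma). Genes of intraflagellar transport and the BBSome, which carry cargo along the cilium, had a median of 0.08 over 21 measured genes. Limma called 0 of them, and at an unadjusted p of 0.05 it had 2 higher (9.52%) and 1 lower (4.76%), beside the same 14.3% and 8.88%. Wdr35, a transport subunit, read 5.37 and 5.67 with PPP and 6.09 and 5.95 with PRP, a difference of 0.50 (SE 0.14, adjusted p 0.178 by limma). Ift27, another one, read 6.44 and 6.55 with PPP and 6.75 and 6.88 with PRP, a difference of 0.32 (SE 0.11, adjusted p 0.256 by limma).

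Proliferation markers differed in the same direction as most members. Of 22 listed markers, 18 had a probe set with exactly 1 symbol, and Mki67, Top2a, Mcm5 and Birc5 did not. All 18 had a positive difference, against 49.3% of all named probe sets. The share was 58.6% for named probe sets at or above the median level, where all 18 lie. In 17 both PRP arrays lay above both PPP arrays, against 23.9% and 35.5%, and the median was 0.31 with all arrays and 0.31 without PPP replicate 1. Limma called 1 of the 18: Mcm2, a subunit of the replicative helicase, read 7.11 and 6.96 with PPP and 7.75 and 7.78 with PRP and was 1.66-fold higher (adjusted p 0.0411 by limma), but leaving out any single array ended that call, at an adjusted p of 0.132 to 0.254 by limma. Mcm4, of the same helicase, read 7.81 and 7.72 with PPP and 8.34 and 8.40 with PRP, a difference of 0.60 (SE 0.11, adjusted p 0.0653 by limma). Plk4 and Cep55 are themselves known to follow the cell cycle. The part of proliferation in the family's differences was not tested.

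**Figure D4:**
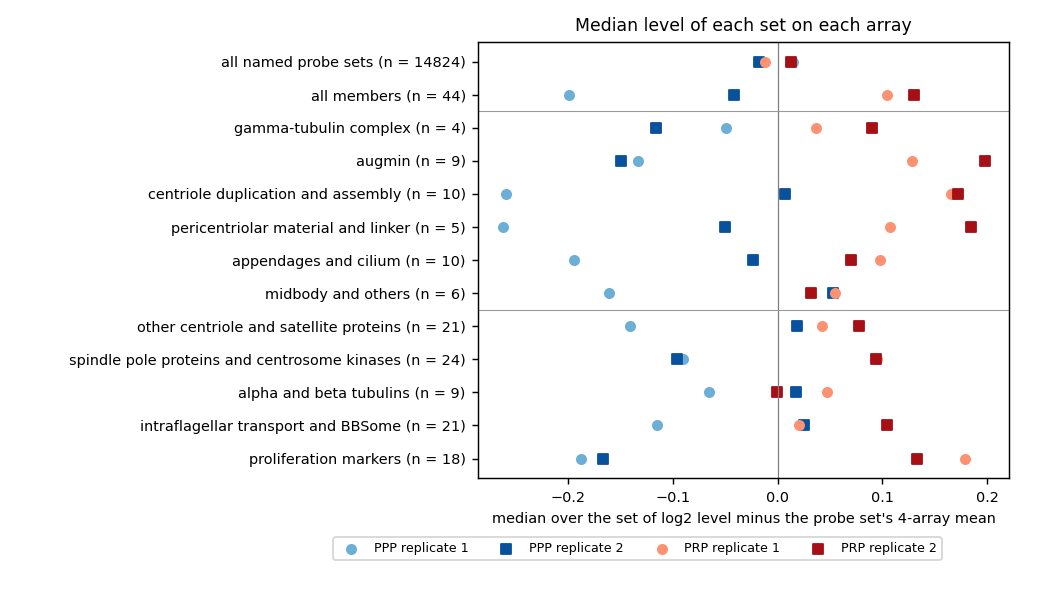
Median over each set of the log2 level minus the probe set's mean over the 4 arrays (horizontal axis), for all named probe sets, the family, its 6 role groups and the 5 lists of other genes; blue symbols are PPP, red symbols PRP, circles replicate 1 and squares replicate 2. In augmin, the spindle pole list and the proliferation markers the 2 PPP arrays lie close together and left of both PRP arrays, while in centriole duplication PPP replicate 1 stands at -0.26 and PPP replicate 2 at 0.01.

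The promoters printed above were part of a search of the letters alone. Its motifs were chosen after the expression values were seen, and the family with the differences in view, so it is not independent of them. RefSeq windows matched 40 of the 42 genes by gene identifier. They were searched on both strands for E2F words (TTCCCGC or TTCGCGC or TTGCCGC or TTGGCGC), for the CHR word TTTGAA and for CCAAT; E2F and CHR elements are known from genes of the S and G2 phases, and CCAAT binds NF-Y. An E2F word was in 15 of the 40 windows (37.5%), against 12.5% of 12576 windows of named genes. The CHR word was in 10 (25%), against 16.3%, and CCAAT in 18 (45%), against 37.6%. Family windows held a median of 19.5 CG dinucleotides and those of all named genes 14, and the E2F words are themselves rich in C and G; the shares are not corrected for base composition. No matches of different motifs overlapped. Such a match describes the letters only.

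Plk4, Cdk5rap2 and Cep76 held both an E2F and a CHR word, and 9 windows held none of the 3 motifs, among them those of Cep290 and Cep120. Of the 7 augmin windows, 5 held an E2F word. The median difference was 0.21 for the 15 genes with an E2F word and 0.17 for the 25 without, each gene taken by its brighter probe set. Cep19 and Cep76, at 0.53 and -0.01, both hold an E2F word, and Cep290 and Cep170b, at 0.48 and -0.07, hold none of the motifs.

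**Figure D5:**
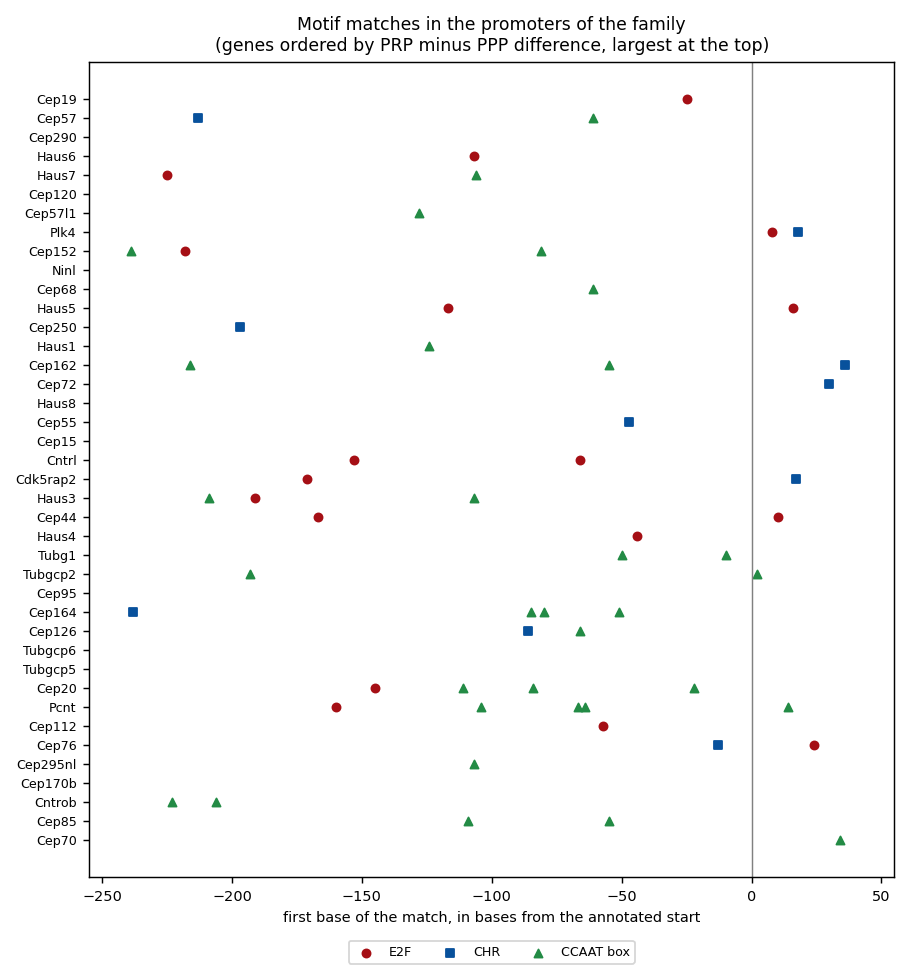
Positions of E2F (red circles), CHR (blue squares) and CCAAT (green triangles) matches in the windows of 40 members, in bases from the annotated start (horizontal axis), with genes ordered by their PRP minus PPP difference from Cep19 (0.53) at the top to Cep70 (-0.16) at the bottom. Haus6 and Ninl are placed by the probe set with the larger difference (0.44 and 0.37), not by the brighter one. Matches are found along the whole order, and 9 genes have none.

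Several members share a start region with a neighbour. In 11 of the 40 (27.5%) another annotated gene on the opposite strand starts within 1000 bases upstream, against 11.6% of all named genes, and 6 of these neighbours were measured. The start of Pigx lies 93 bases from that of Cep19. Pigx, an enzyme subunit of GPI anchor synthesis, read 7.06 and 7.09 with PPP and 7.02 and 7.18 with PRP, a difference of 0.02 (SE 0.11, adjusted p 0.958 by limma) beside 0.53 for Cep19. Tmtc3, 243 bases from Cep290, read 7.02 and 6.91 with PPP and 6.87 and 7.02 with PRP, a difference of -0.02 (SE 0.12, adjusted p 0.956 by limma) beside 0.48 for Cep290. In both pairs the neighbour's arrays overlapped between releasates and the member's did not. Myo9b beside Haus8, Retreg3 beside Tubg1 and Psmg2 beside Cep76 had differences of -0.05, -0.06 and -0.04, and Trappc1 beside Cntrob one of 0.18. In that last pair it was the reverse: Trappc1 read 8.68 and 8.51 with PPP and 8.75 and 8.80 with PRP, without overlap. The groups of Cntrob overlapped. Limma called none of the 6 neighbours at an adjusted p of 0.05. The difference within each pair was not tested.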

How the data were processed

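The authors' deposited table holds log2 values for 36685 probe sets on 4 arrays; the submitters' processing notes name the tools oligo, RMA and limma but neither versions nor their order. RMA makes the array distributions alike, so a change in total RNA would not show. Scanner files were not used here, so dim values carry no detection call. Per the labels, cDNA was amplified from 15 ng of RNA and 3 ug of it was labelled. The sources used here name no genome build or annotation for these arrays. Gene symbols came from GEO's platform table: 14824 probe sets had 1 symbol, 829 several and 21032 none.

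PRP and PPP were compared by limma (version 3.58.1, R 4.3.3; lmFit, then eBayes without an intensity trend), two-sided, across the 14824, with Benjamini-Hochberg adjustment over all of them. The number of arrays limits the precision. No filter on dim probe sets was applied. Errors are limma's moderated SE with n = 2 arrays each. The fit was tested on simulated data. In the lists of other genes and of markers a gene was represented by its brightest probe set.

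Differences are between the mean log2 values of the 2 arrays of each releasate. The members and lists were chosen with earlier results of these data known, and the role groups and motifs after the values were seen. All members are named; array values are given for the 2 largest and 2 smallest differences of each role group, and for other genes the called ones and the 2 with the smallest p of each list; values of further members were added after they were seen. Promoter windows are from RefSeq, GRCr8.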

Additional observations from a re-analysis of the deposited data

How the results depend on the processing

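Over all named probe sets limma called 274, and the number depended on the processing: 808 with an intensity trend, 472 with arrays centred on their medians, 313 after cyclic loess, 650 with dim probe sets left out, 2 in a fit of all 36685 probe sets, 123 with the replicate number as a block, and 56 to 81 with 1 array left out. Of the family, 2 members were called as higher with an intensity trend (Plk4, adjusted p 0.0422, and Haus7, 0.0428, by limma) and 1 with dim probe sets left out (Cep120, adjusted p 0.0473 by limma); 0 were called in the other settings, the replicate block and the fits without 1 array included, and 0 as lower in any. Of the genes of the 5 other lists, 1 was called, against 12 with a trend, 9 without dim probe sets, 6 after median centring, and 0 in the fit of all probe sets, with the replicate block and with any 1 array left out. Beside the 2 of 44 members called with a trend stand 808 of 14824 named probe sets, counted in both directions. Beside the 1 of 40 called without dim probe sets stand 650 of 7412, again in both directions. The cause of the changes between settings was not tested. Same-numbered replicates did not deviate together (correlation 0.00564 over all named probe sets), so their numbers were not taken as pairs outside the block fit.

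The family's median difference stayed between 0.16 and 0.33 over all settings, and lay at 0.30 after median centring and 0.21 after cyclic loess. Median centring raised the median of all named probe sets to 0.06. It made 4 members with small negative differences positive (Haus4-ps1, Cep76, Cep295nl and Ninl on 1 probe set), and cyclic loess changed the sign of 5 members (Haus4-ps1, Cep295nl, Ninl on that probe set, Cep20 and Cep112). The count of members with both PRP arrays above both PPP arrays, an alternative reading chosen after seeing the data, was 27 after centring (33.4% of all named probe sets), 26 after loess (25%), and 28 to 35 with 1 array left out (33.8% to 39.5%), where fewer arrays have to be separated. Members with the PRP arrays below numbered 0 after centring and 1 after loess, and, with 1 array left out, 8 when it was the first PPP array, 5 for the other PPP array, and 2 and 3 for the PRP arrays (33.2% to 41.1% of all named probe sets). Leaving out PPP replicate 1 changed the sign of 8 probe sets of the family, and leaving out PPP replicate 2 that of 4.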
